A study of Mus musculus with 30 samples.

Results

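Gpnmb and Slc45a2 encode membrane proteins of the melanosome, the organelle in which pigment cells make and store melanin. Both were selected on their normalized levels and their numbers of libraries with a count across these regions of the embryonic eye, so their levels are given as a description without a test. They are 2 of the 56484 genes listed in the count table and 2 of the 8337 that reached above 10 counts in 3 or more libraries. The table held 30 Geo-seq libraries, each made from a small area cut by laser from a cryosection and amplified before sequencing. All came from mouse embryos at embryonic day 12 (E12) with the genotype label Control, which the study's methods give as littermates without the Dct-Cre transgene, from floxed Smarcc1 (Baf155) or Smarcc2 (Baf170) lines kept on C57Bl6/J. Of these, 14 were cut from the presumptive retinal pigmented epithelium (pRPE) and 16 from the optic stalk (OS).

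The pRPE is the layer of the optic cup that becomes the pigmented epithelium behind the retina, and the OS is the neuroepithelial stalk that joins the cup to the forebrain and later forms the optic nerve. Melanosomes begin as vesicles that acquire a fibrillar matrix, then receive enzymes and transporters and darken as melanin is deposited. Gpnmb is a transmembrane glycoprotein of melanosomes and lysosomes that is also made by macrophages, and Slc45a2 is a transporter-like protein that affects the pH of the melanosome and whose loss causes albinism. The transcription factor Mitf is a known regulator of pigment genes in this epithelium.

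In the GRCm38.p6 annotation of RefSeq, Gpnmb lies on the forward strand of chromosome 6 from 49036518 to 49058182 with 11 exons, and Slc45a2 on the forward strand of chromosome 15 from 11000721 to 11029233 with 7 exons. The 250 bases before the start of Gpnmb, chr6:49036268-49036517 of the forward strand, are shown because Mitf and its relatives bind E-boxes, and the capitals mark the match to the general E-box CANNTG.

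Gpnmb: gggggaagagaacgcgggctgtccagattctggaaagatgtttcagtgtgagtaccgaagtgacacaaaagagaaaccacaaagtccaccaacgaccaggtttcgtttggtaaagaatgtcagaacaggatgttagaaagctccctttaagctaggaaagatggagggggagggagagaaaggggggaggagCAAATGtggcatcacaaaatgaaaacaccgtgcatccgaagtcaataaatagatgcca

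Both strands were searched for the motif CATGTG, for the palindrome CACGTG and for the general form CANNTG, which also matches the other two. The window held 1 match to the general form, 58 bases before the start, and 66.2% of 32851 promoter windows of the same length held at least 1. It held no match to CATGTG, found in 12.3% of the windows, or to CACGTG, found in 6.02%, which says only that these letters are not in this stretch. Of the 37 other pigment genes listed further on, 32 had an entry in the promoter table, and 10 of those held CATGTG, 9 held CACGTG and 24 held CANNTG. These are counts of genes with a match in any of their windows. Among all 27025 genes with such windows, 3742 held CATGTG, 1854 held CACGTG and 18729 held CANNTG.

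Libraries held 1421918 to 6041021 counts in total and 1730 to 9886 genes with a count, and mitochondrial genes took 30.4% to 55.4% of the counts. Levels are given as CPM, a gene's counts relative to the library total after TMM scaling (edgeR's correction for library composition), and 3 counts, the limit that a count of 0 allows, corresponded to 0.650 to 2.20 CPM. Reads carried no molecular identifiers, so this limit covers counting error only. The labels used here do not say which libraries came from separate embryos, and the study's sample table of mouse identities was not used here, so an SD or p-value measures the spread between these samples. The methods speak of 4 control embryos at this stage, so libraries of different regions share embryos, and p-values that treat the 30 libraries as independent may be too small, which was not tested. Of 10 pRPE marker genes, 3 (Ttr, Lrat and Dct) were at 0 in every library and Rpe65, Rdh5 and Best1 in every pRPE library, Rlbp1, Otx2 and Pmel were counted in 1, 2 and 3 of the 14 pRPE libraries and Mitf in 11. In the OS, Mitf was counted in 7 of 16 libraries, Otx2, Rpe65, Rdh5 and Best1 in 1 each, and the mean of Otx2 was 4.60 CPM against 1.70 CPM in the pRPE. Of 7 stalk markers, Pax2 was counted in 12 of 16 OS and 2 of 14 pRPE libraries, Cdh6 in 15 and 10, Zic1 in 5 and 1, Zic4 in 6 and 0 and Vax1 in 1 and 0, while Ntn1 and Vax2 were counted in 2 and 1 pRPE libraries and no OS library. In such bulk samples fewer cells of a type and less RNA per cell cannot be told apart.

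Gpnmb was counted in all 14 pRPE libraries, all 7 dorsal OS libraries and 3 of 9 ventral OS libraries, 24 of 30 in all. Its mean level was 441 ± 321 CPM in the pRPE (SD, n = 14), 230 ± 290 CPM in the dorsal OS (SD, n = 7) and 2.85 ± 5.42 CPM in the ventral OS (SD, n = 9). The lowest dorsal OS libraries reached down into the range of the ventral OS, and the dorsal OS and pRPE ranges overlapped. No ventral OS library exceeded 13.5 CPM, whereas 13 of 14 pRPE libraries were at 76.2 CPM or more.

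Within the pRPE, Gpnmb measured 162, 342 and 608 CPM in the 3 dorsal distal libraries and 6.56, 463, 749 and 1152 CPM in the 4 dorsal proximal libraries. It measured 348, 461, 534 and 851 CPM in the 4 ventral distal libraries and 76.2, 155 and 268 CPM in the 3 ventral proximal libraries. The ventral proximal libraries lay below every ventral distal library, while the dorsal regions overlapped. The low dorsal proximal value was that of replicate 2, which held 13 counts of Gpnmb among 2474765. Over all 7 dorsal and 7 ventral pRPE libraries the means were 498 ± 384 and 385 ± 261 CPM (SD), a gap smaller than either spread.

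In the dorsal OS, Gpnmb measured 171, 341 and 832 CPM in the 3 distal libraries, 4.84 and 88.8 CPM in the 2 middle libraries and 0.480 and 172 CPM in the 2 proximal libraries. All distal libraries lay within the range of the pRPE, and the lowest of them was close to the highest proximal one. In the ventral OS, the gene had no count in the 3 distal and the 2 proximal libraries, and 0, 0.955, 11.2 and 13.5 CPM in the 4 middle libraries. The last 3 of these came from 2, 33 and 36 counts, so all the ventral OS counts of Gpnmb lay in the middle region. The 6 ventral OS libraries without a count had limits of 0.895 to 2.20 CPM.

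Slc45a2 was counted in 20 of 30 libraries, 13 of 14 in the pRPE, 6 of 7 in the dorsal OS and 1 of 9 in the ventral OS. Its mean level was 704 ± 530 CPM in the pRPE (SD, n = 14), 379 ± 499 CPM in the dorsal OS (SD, n = 7) and 154 ± 462 CPM in the ventral OS (SD, n = 9). Without dorsal distal OS replicate 63 the dorsal OS mean was 208 ± 232 CPM (SD, n = 6), and that of Gpnmb 129.7 ± 128 CPM. The ventral OS mean came from replicate 69 of the middle region alone, which held 3692 counts, and without it the other 8 libraries were all at 0. In 19 of its 20 libraries Slc45a2 had more than 50 counts, and the exception, dorsal proximal OS replicate 5, held 7. Gpnmb had more than 50 counts in 18 of its 24 libraries.

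Within the pRPE, Slc45a2 measured 329, 454 and 1019.9 CPM in the dorsal distal libraries and 329, 704, 1019.8 and 1727 CPM in the dorsal proximal libraries. It measured 251, 740, 1035 and 1659 CPM in the ventral distal libraries and 0, 230 and 364 CPM in the ventral proximal libraries. The distal and proximal ranges overlapped on both the dorsal and the ventral side. The library at 0 was replicate 87, in which no count among 3513187 allows up to 0.856 CPM.

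In the dorsal OS, Slc45a2 measured 0, 327 and 1403 CPM in the distal libraries, 149 and 614 CPM in the middle libraries and 3.36 and 158 CPM in the proximal libraries. The spread within the distal region covered the values of both other dorsal OS regions. In the ventral OS, all distal and proximal libraries were at 0, and the middle libraries were at 0, 0, 0 and 1386 CPM. The ventral OS library with the count stood among the highest 4 of all 30 libraries for Slc45a2.

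**Figure D1:**
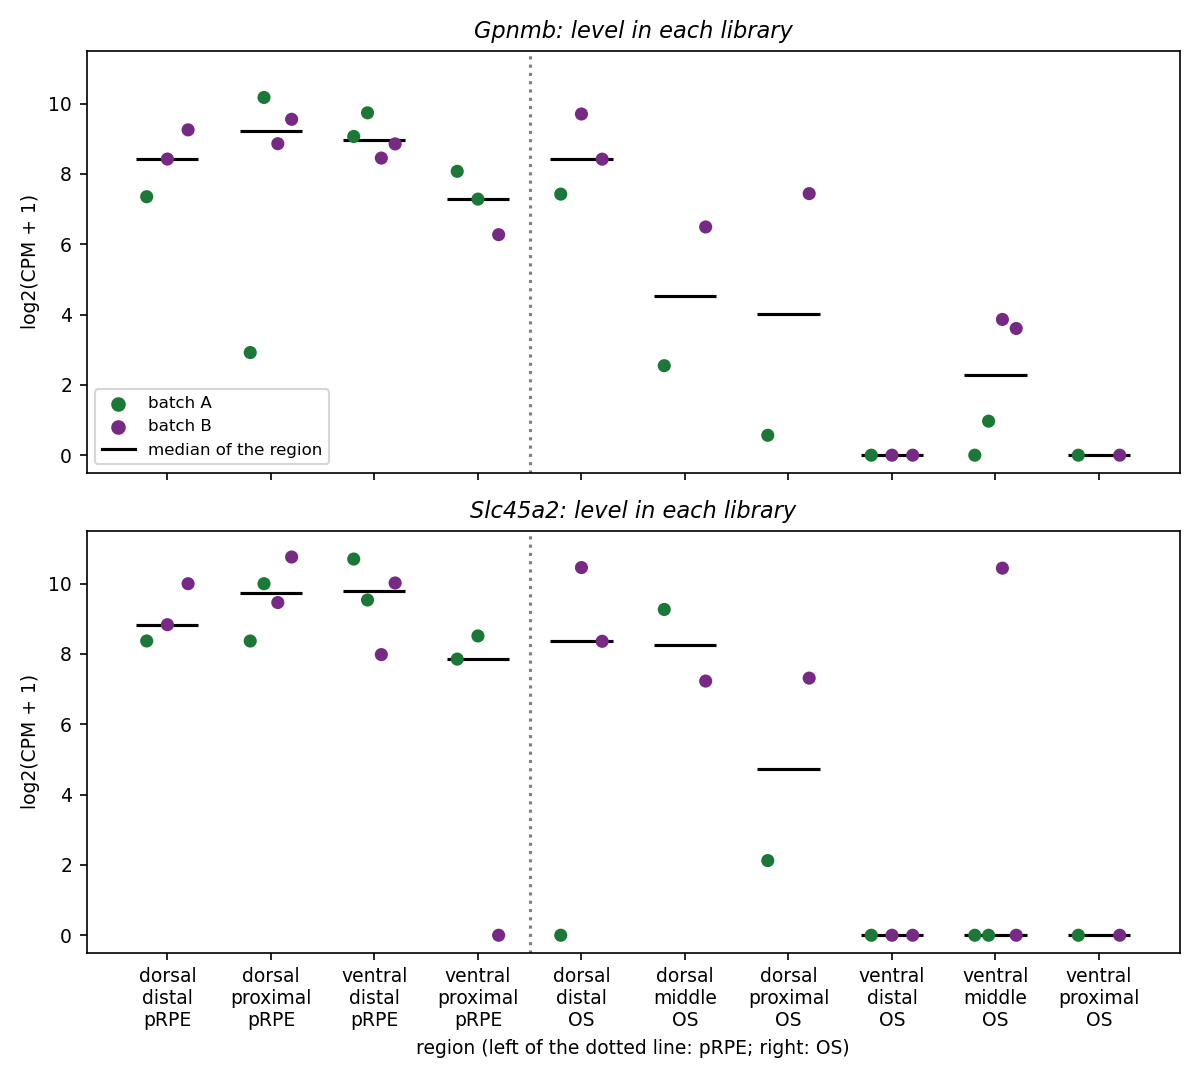
Level of Gpnmb (upper panel) and Slc45a2 (lower panel) in each library, as log2(CPM + 1), by region, with points coloured by batch and a bar at the median of the region. The distal and proximal ventral OS libraries are at 0 for both genes, and 1 ventral middle OS library (replicate 69) stands at 10.4 for Slc45a2.

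Ordered by mean level, the regions ran for Gpnmb from dorsal proximal pRPE (593 ± 482 CPM) through ventral distal pRPE (549 ± 216), dorsal distal OS (448 ± 343), dorsal distal pRPE (371 ± 224) and ventral proximal pRPE (166 ± 96.4) to dorsal proximal OS (86.4 ± 122). Below these were dorsal middle OS (46.8 ± 59.4), ventral middle OS (6.41 ± 6.93) and the ventral distal and ventral proximal OS at 0. For Slc45a2 the order began with dorsal proximal pRPE (945 ± 593 CPM), ventral distal pRPE (921 ± 588), dorsal distal pRPE (601 ± 368) and dorsal distal OS (577 ± 734). It went on with dorsal middle OS (381 ± 329), ventral middle OS (347 ± 693), ventral proximal pRPE (198 ± 184) and dorsal proximal OS (80.6 ± 109), again with the 2 regions at 0 last. In neither order did any pair of neighbouring regions differ by more than the larger of their SDs. The same 2 pRPE regions stood first for both genes, and the dorsal distal OS stood among the pRPE regions.

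By tissue, the mean of the pRPE exceeded that of the OS by 339 CPM for Gpnmb and 452 CPM for Slc45a2. The difference of Gpnmb exceeded its pooled SD between libraries (270 CPM) and that of Slc45a2 did not (502 CPM). Within batch A these differences were 422 and 579 CPM, and within batch B 273 and 361 CPM. The pRPE minus OS difference thus had the same sign in both batches for both genes. Within 1 of the 4 blocks of library numbers that of Slc45a2 was -267 CPM. With the size factors of DESeq2 the pRPE minus OS difference was 253 CPM for Gpnmb and 255 CPM for Slc45a2. Without replicate 69, which held the only ventral OS counts of Slc45a2, the gene was counted in 6 of 15 OS libraries, all dorsal.

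Along the dorsal-ventral axis, averaged over both tissues, dorsal libraries exceeded ventral ones by 170.0 CPM for Gpnmb and 206 CPM for Slc45a2. Both differences were below their pooled SDs of 263 and 509 CPM. In batch A these differences were only 23.4 and 8.46 CPM, against 299 and 389.6 CPM in batch B. The Slc45a2 difference turned to -21.6 CPM with the size factors of DESeq2, which gave 68.5 CPM for Gpnmb. In the OS alone dorsal exceeded ventral by 227 CPM for Gpnmb and 225 CPM for Slc45a2 (379 against 154 CPM), and in the pRPE alone by 113 and 186 CPM. Of these 4 single-tissue differences that of Gpnmb in the OS exceeded the pooled SD between libraries (189.9 CPM) and the other 3 did not. That SD pools 290 CPM in the dorsal OS with 5.42 CPM in the ventral OS, and the difference was below the SD of the dorsal OS. The OS means of Slc45a2 were 208 against 154 CPM without dorsal distal OS replicate 63 and 379 against 0 CPM without ventral middle OS replicate 69. Those of Gpnmb were 129.7 against 2.85 CPM without dorsal distal OS replicate 63. The highest pRPE library was a dorsal proximal one for both genes, replicate 32 at 1152 CPM for Gpnmb and replicate 82 at 1727 CPM for Slc45a2. The batch B difference of Gpnmb also exceeded its pooled SD (205 CPM), and that of Slc45a2 did not (586 CPM). The SD of Gpnmb in the 4 dorsal OS libraries of batch B alone was 333 CPM. Without dorsal distal OS replicate 63 the Slc45a2 difference over both batches was 120 CPM, and without dorsal proximal pRPE replicate 82 it was 128 CPM. The numbers of OS libraries with a count ran the same way in both batches. In batch A they were 3 of 3 dorsal and 1 of 4 ventral OS libraries for Gpnmb, and 2 of 3 and 0 of 4 for Slc45a2. In batch B they were 4 of 4 dorsal and 2 of 5 ventral OS libraries for Gpnmb, and 4 of 4 and 1 of 5 for Slc45a2.

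Along the distal-proximal axis, with the middle OS left out, distal libraries exceeded proximal ones by 122 CPM for Gpnmb and 204 CPM for Slc45a2, below the pooled SDs of 307 and 508 CPM. Within batch A these differences were 103 and 211 CPM, and within batch B 109 and 117 CPM. With the middle OS counted as proximal they were 129 and 108 CPM over both batches. Without dorsal distal OS replicate 63 the differences over both batches were 60.7 and 92.2 CPM, and without dorsal proximal pRPE replicate 32 that of Gpnmb was 183 CPM. Without ventral distal pRPE replicate 6 that of Slc45a2 was 131 CPM. In the OS, 3 of 6 distal, 5 of 6 middle and 2 of 4 proximal libraries held a count of Gpnmb, and 2, 3 and 2 held one of Slc45a2.

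Libraries with and without a count of the genes overlapped in depth. The ventral OS libraries without Gpnmb had 1421918 to 3030779 total counts and 1730 to 4853 genes with a count, and the 3 with it had 2373270 to 2813079 and 3029 to 5250. The dorsal OS library without Slc45a2, distal replicate 33, had the second largest total of the 30, 5400977, and 787 counts of Gpnmb. Over all libraries the level of Gpnmb correlated with the number of genes with a count at r = 0.487 and that of Slc45a2 at r = 0.384 (Pearson, log2(CPM + 1), n = 30). Within the OS these were 0.335 and 0.175 (n = 16), within the pRPE 0.470 and 0.374 (n = 14) and within the dorsal pRPE 0.724 and 0.797 (n = 7). Within the ventral pRPE they were 0.0895 and 0.186 (n = 7) and within the dorsal OS 0.0832 and 0.0237 (n = 7). Within batch A they were 0.686 and 0.522 (n = 14) and within batch B 0.375 and 0.305 (n = 16). The part of the number of genes with a count in the levels was not tested.

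**Figure D2:**
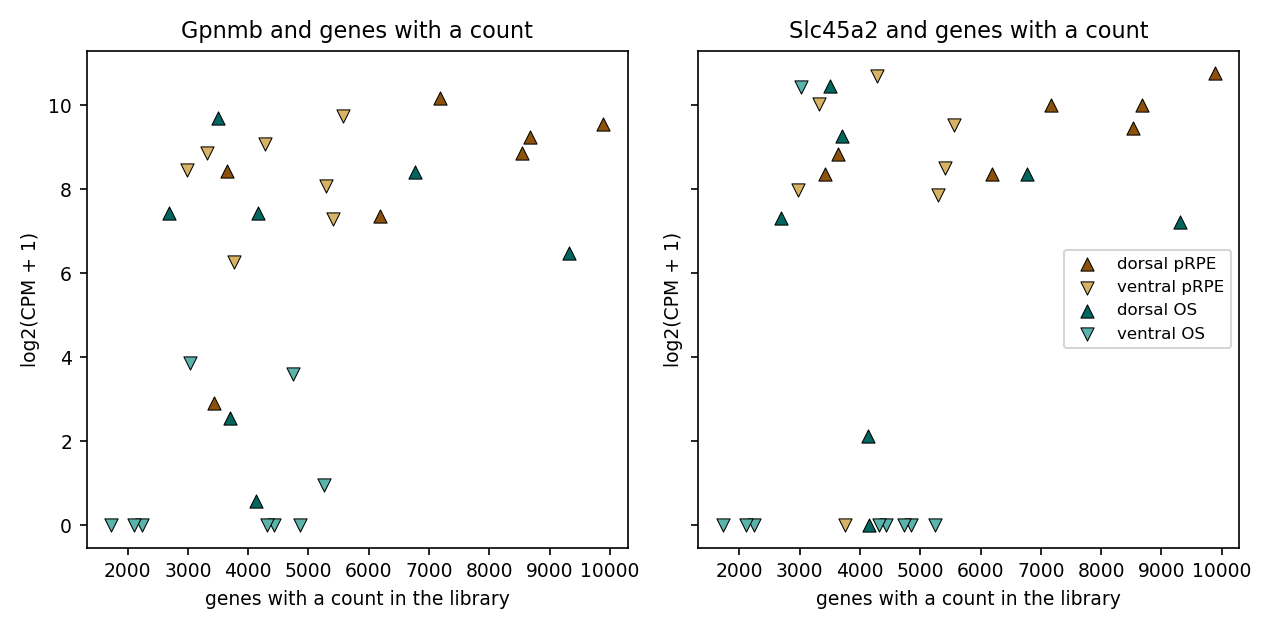
Level of Gpnmb (left) and Slc45a2 (right), as log2(CPM + 1), against the number of genes with a count in the same library, with 1 symbol per library by tissue and dorsal-ventral position. Libraries at 0 lie between 1730 and 5250 genes with a count, a range that also holds many of the libraries at high levels.

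Gpnmb and Slc45a2 were counted together in 20 libraries, Gpnmb alone in 4, Slc45a2 alone in 0 and neither in 6. Every library with a count of Slc45a2 thus held Gpnmb, and 83.3% of those with Gpnmb held Slc45a2. The 6 libraries with neither gene were all ventral OS. The 4 with Gpnmb alone were ventral proximal pRPE replicate 87, dorsal distal OS replicate 33 and ventral middle OS replicates 39 and 89. With more than 10 counts required of each gene, 19 libraries held both, 3 Gpnmb alone, 0 Slc45a2 alone and 8 neither. With more than 3 counts required, 19 held both, 3 Gpnmb alone, 1 Slc45a2 alone (dorsal proximal OS replicate 5, with 7 counts against 1) and 7 neither. In batch A, 9 libraries held both and 2 Gpnmb alone, and in batch B 11 and 2.

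The levels of both genes correlated at r = 0.775 (Pearson, log2(CPM + 1)) and rho = 0.788 (Spearman) over the 30 libraries, which share tissue, batch and depth between the points. Within the pRPE the values were r = 0.471 and rho = 0.763 (n = 14) and within the OS r = 0.686 and rho = 0.719 (n = 16). In the dorsal OS alone, where most libraries held both genes, r was 0.337 and rho 0.5 (n = 7). In the dorsal pRPE alone r was 0.738 and rho 0.893 (n = 7), and in the ventral pRPE alone 0.836 and 0.786 (n = 7). Within batch A r was 0.729 (n = 14) and within batch B 0.819 (n = 16). The OS value includes the 6 libraries with neither gene, and in the pRPE replicates 2 and 87 lay far from the other libraries.

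Per kilobase of exon, the level of Slc45a2 was 0.919 to 162 times that of Gpnmb, with a median of 2.14, in the 19 libraries with more than 10 counts of both. In all but 3 libraries the ratio was at most 3.96, and it was above 1 in 18 of the 19. The 3 exceptions were dorsal proximal pRPE replicate 2 at 63.9, ventral middle OS replicate 69 at 131 and dorsal middle OS replicate 34 at 162. These 3 held 13, 36 and 12 counts of Gpnmb beside 652, 3692 and 1523 of Slc45a2. The opposite pattern, Gpnmb high and Slc45a2 at 0, was that of dorsal distal OS replicate 33 with 787 counts and ventral proximal pRPE replicate 87 with 267 counts of Gpnmb. These 5 libraries came from 5 regions, both tissues and both batches.

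**Figure D3:**
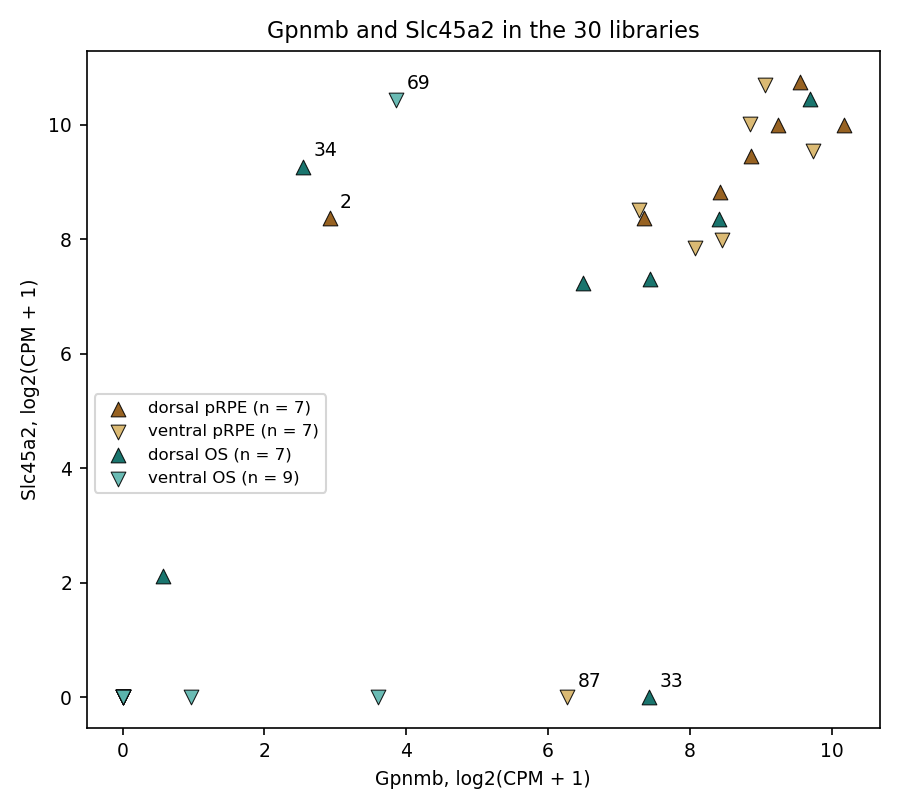
Level of Slc45a2 against that of Gpnmb, both as log2(CPM + 1), with 1 symbol per library by tissue and dorsal-ventral position. The 6 ventral OS libraries with neither gene lie on top of each other at 0, and the numbers mark the replicates in which only 1 of the 2 genes was high.

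Macrophages make Gpnmb and melanoblasts make both genes, so marker lists of these cells were set beside the levels. The melanoblast list shares Mlana, and the pRPE list shares Mitf, Pmel and Dct, with the list of pigment genes described further on. Of 14 macrophage and microglia markers, 6 (Cx3cr1, C1qa, C1qb, C1qc, Fcer1g and Trem2) had no count in any library, while Ptprc was counted in 10 libraries, Csf1r in 7, Cd68 in 6, Aif1 in 3 and the other 4 in 1 or 2. Their summed level ranged from 0 to 35.2 CPM in the pRPE (median 2.67), from 0 to 227 CPM in the dorsal OS (median 1.10) and from 0 to 72.9 CPM in the ventral OS (median 1.19). Of 8 melanoblast and neural crest markers, Ednrb and Foxd3 had no count in any library and Sox10 had one in a single OS library. Erbb3 was counted in 13 libraries, 5 of them of the 7 dorsal OS libraries, and set the highest sum, 347 CPM, alone. Their summed level ranged from 0 to 258 CPM in the pRPE (median 0), from 0 to 347 CPM in the dorsal OS (median 103) and from 0 to 215 CPM in the ventral OS (median 0). In the 20 libraries with both genes the melanoblast list had a median of 0 CPM (0 to 347), against 18.6 CPM (0 to 215) in the other 10. The part of these cells in the levels of Gpnmb and Slc45a2 was not tested. The 7 optic stalk markers summed to a median of 118 CPM (0 to 1873) in the libraries with both genes and 1134 CPM (25.8 to 3276) in the others. The 10 pRPE markers summed to medians of 45.7 CPM (0 to 243) and 0 CPM (0 to 53.5). Cdh6 made up most of the stalk sum (mean 870 CPM in the OS, against 90.6 CPM for Pax2). Mitf made up most of the pRPE sum (mean 62.7 CPM in the pRPE, against 3.30 CPM for Pmel). Of the 20 libraries with both genes 13 were pRPE libraries.

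The other genes of the pigment pathway were taken as a list of 37, of which 21 had a count in at least 1 library and 15 passed the filter on low counts. The 3 melanin enzymes Tyr, Tyrp1 and Dct, of which tyrosinase catalyses the first step of melanin synthesis, were at 0 throughout the 30 libraries. A row at 0 throughout does not show that the transcript was absent, which was not tested. In embryos that carry it, the study reports activity of the Dct-Cre transgene in the pRPE by this stage. Among the sorting complexes that deliver cargo to melanosomes, 11 of 18 genes had none, including all 6 Bloc1s genes. In all, 16 of the 37 listed genes had no count in any library, beside 31241 of the 56484 genes of the whole table.

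Between pRPE and OS, edgeR's quasi-likelihood test with the batch as a covariate called 1 of the 15 pigment genes, where 5.34% of all 8337 genes tested were called. A call needed an adjusted p (Benjamini-Hochberg) below 0.05 together with a change of more than 0.58 on the log2 scale. The gene was Pmel, which forms the fibrils of the melanosome matrix, with 11, 19 and 93 counts in 3 pRPE libraries and none in the others. It passed the filter on low counts through exactly these 3 pRPE libraries, so the filter itself favoured a difference in this direction and the call gives no independent support for one. Its mean in the pRPE was 3.30 ± 9.84 CPM (SD, n = 14), most of it from ventral distal replicate 86, which held the 93 counts, beside 1.25 CPM for the mean OS level that 3 counts per library would give. The adjusted p of 0.0182 in edgeR became 0.0882 without ventral distal pRPE replicate 36 and 0.0682 with the library block in place of the batch, ranged from 0.0117 to 0.0882 over the edgeR alternatives, and DESeq2 gave no adjusted p. All 3 libraries with Pmel, dorsal proximal replicate 82 and ventral distal replicates 36 and 86, held both Gpnmb and Slc45a2. These p-values, over libraries that share embryos, may be too small.

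Between dorsal and ventral libraries, with tissue and batch as covariates, edgeR called 0 of the 15 pigment genes, where 8.16% of all genes tested were called, and 3 had an unadjusted p under 0.05. DESeq2 also called 0. The 3 were Mitf (log2 fold change 3.54, SE 1.68, adjusted p = 0.242), Rab27a, which tethers melanosomes to the cytoskeleton (log2 fold change 4.66, SE 1.64, adjusted p = 0.0691), and Vps33a (log2 fold change -3.91, SE 1.54, adjusted p = 0.117). Rab27a and Vps33a were counted in 5 and 4 libraries only. With errors of this size an adjusted p above the threshold does not show equal levels, and the p-values, over libraries that share embryos, may be too small. The median log2 fold change was -0.28 over the 15 genes and 0.81 over all genes tested, but that of the 15 genes was 0.38 with the library block and ranged from -0.76 (DESeq2) to 0.41 (without ventral proximal pRPE replicate 7) over the alternatives.

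Between distal and proximal libraries, with the middle OS left out, edgeR called 0 of the 15 pigment genes, where 0% of 8336 genes tested were called. Over all genes 847 had an unadjusted p under 0.05 and DESeq2 called 104, none of them from the list. In edgeR 2 pigment genes had an unadjusted p under 0.05, Hps3 (adjusted p = 0.165) and Vps33a (adjusted p = 0.480), again over libraries that share embryos, so that the p-values may be too small.

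The 15 genes varied in how they lay beside Gpnmb and Slc45a2. Mitf was counted in 11 of 14 pRPE, 6 of 7 dorsal OS and 1 of 9 ventral OS libraries, at means of 62.7 ± 73.5, 57.7 ± 60.2 and 4.62 ± 13.8 CPM (SD), and 15 of its 18 libraries held both genes. Trpm1, a channel gene regulated by Mitf, had means of 89.5 ± 85.0 CPM in the pRPE and 89.3 ± 113 CPM in the OS. Oca2, which encodes a melanosomal anion channel, had 27.0 ± 20.4 and 17.2 ± 9.37 CPM in the dorsal and ventral pRPE and 17.6 ± 17.2 and 17.4 ± 29.7 CPM in the dorsal and ventral OS (SD), and was counted in 5 of the 10 libraries that lacked 1 or both of the genes. Tfec, a relative of Mitf, had 133 ± 241 CPM in the pRPE and 394 ± 382 CPM in the OS, where it was counted in 14 of 16 libraries. Mitf and Slc45a2 were each counted in 1 ventral OS library, replicate 39 for Mitf and replicate 69 for Slc45a2, while Trpm1, Oca2 and Tfec were counted in 6, 5 and 7 of the 9.

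Among the motors that move melanosomes, Myo7a was counted in 28 libraries, at 269.7 ± 105 CPM in the pRPE and 184 ± 148 CPM in the OS, and Myo5a in 13 of 14 pRPE and 8 of 16 OS libraries, at 97.2 ± 60.5 and 38.3 ± 60.2 CPM. Neither passed the test between tissues (adjusted p = 0.882 and 0.781 in edgeR). Of the transporters, the copper pump gene Atp7a, the exchanger gene Slc24a5 and the transporter gene Mfsd12 were counted in 5, 4 and 5 libraries. Of the sorting genes that passed the filter, Ap3d1 was counted in 13 libraries, Hps1 in 10, Hps3 in 5 and Vps33a in 4. Each of these was thus counted in 13 libraries or fewer.

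**Figure D4:**
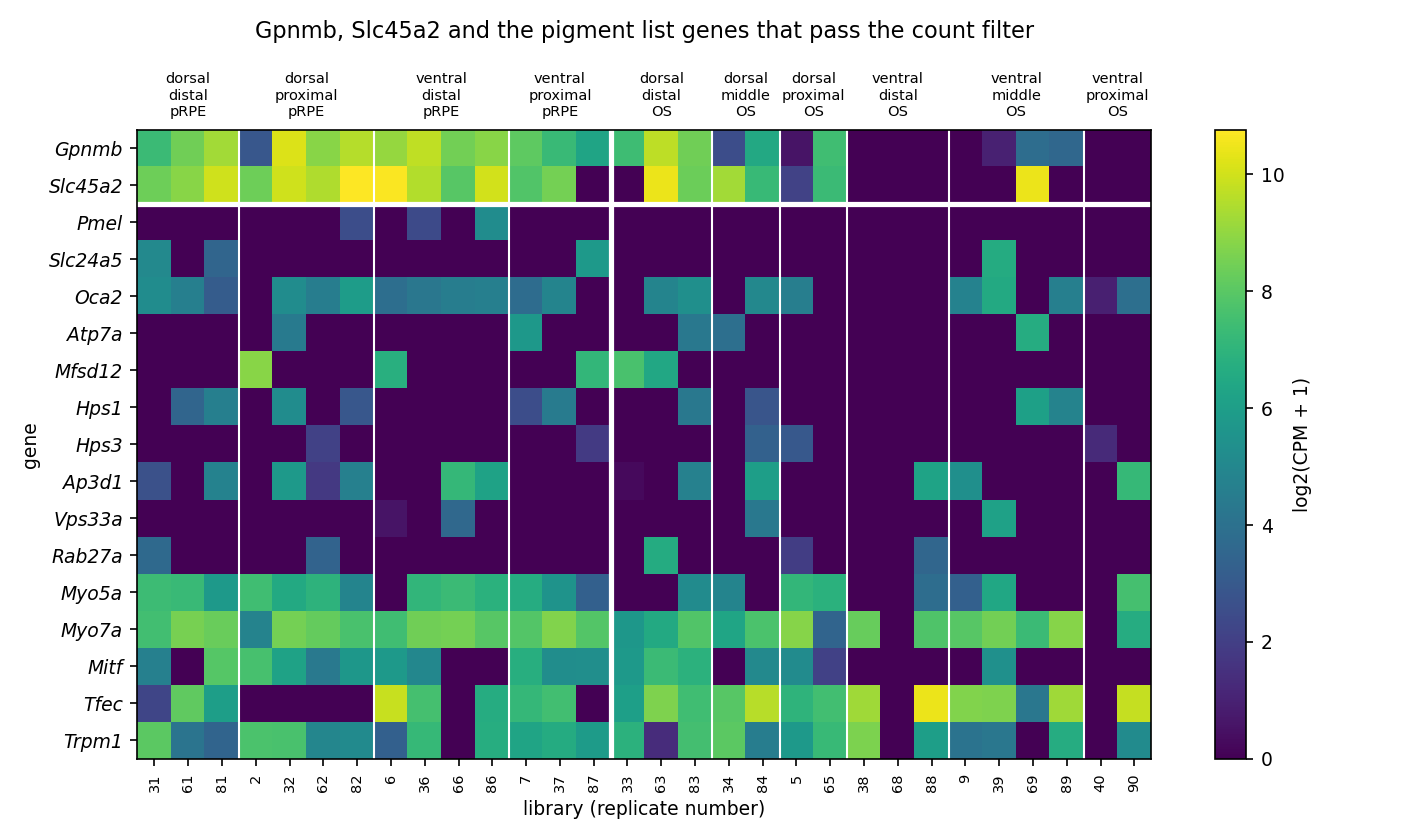
Levels as log2(CPM + 1) of Gpnmb, Slc45a2 and the 15 pigment list genes that passed the count filter, with genes in rows and the 30 libraries in columns by region. The row of Gpnmb holds a count in 24 libraries and that of Slc45a2 in 20, with both at 0 in the distal and proximal ventral OS and low cells also in pRPE replicates 2 and 87 and dorsal OS replicates 5, 33 and 34, Myo7a is bright in 28 libraries, and most other rows are dark in most libraries.

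The genes most like Gpnmb over the 30 libraries, by Pearson's r of log2(CPM + 1) among the genes that passed the filter, were Scara5 (r = 0.865), a ferritin receptor, Gdf11 (0.801), a secreted ligand of the TGF-beta family, Gm56981 (0.801), the adhesion gene Cdh1 (0.787) and Gm20461 (0.779). Slc45a2 came next at rank 6. Those most like Slc45a2 were Gpnmb (0.775), Gdf11 (0.754), Gm20461 (0.733), the receptor gene Mrgprx2 (0.715) and Scara5 (0.703). The median r over the 8336 other genes was 0.197 for Gpnmb and 0.156 for Slc45a2. Mitf stood at rank 180 for Gpnmb (r = 0.535) and 644 for Slc45a2 (r = 0.388), Oca2 at 850 and 1419, Myo5a at 3329 and 1391, Trpm1 at 5380 and 6009 (r = 0.113 and 0.030) and Tfec at 7828 and 7606 (r = -0.160 and -0.136). Scara5 was counted in 14 of 14 pRPE, 5 of 7 dorsal OS and 1 of 9 ventral OS libraries, at 823 CPM in the pRPE and 355 CPM in the OS. Gdf11 was counted in all 30 libraries, at 6221 and 3428 CPM, so its likeness lies in level and not in the number of libraries.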

How the data were processed

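The authors aligned the reads of 30 E12 libraries to GRCm38 with HISAT2, after FastQC, and used StringTie for quantification. The values they deposited are estimated counts per gene symbol, not normalized. The counting program and annotation release are not given in the sources used here. In 63 genes 270 values were not whole and were rounded. Groups came from the tissue labels and batches from the batch label. The 8337 genes above 10 counts in 3 or more libraries entered edgeR 4.0.16, run in R 4.3.3 (TMM, quasi-likelihood, batch and, for the axes, tissue as covariates), with DESeq2 1.42.0 as an alternative. The fits were tested on simulated data. CPM used the TMM library size, and log2 values a pseudocount of 1. Levels, ratios and figures used python 3.11.15, pandas 2.3.3, numpy 2.4.6 and matplotlib 3.10.9. Promoter windows and gene positions came from RefSeq tables of GRCm38.p6.

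Gpnmb and Slc45a2, the pigment list, the marker lists and the comparisons were chosen with earlier results of these data known. The genes named are the pigment genes that passed the filter and the 5 genes most correlated with each of the 2. Alternatives were TMMwsp, DESeq2, other filters, models without batch or with the library block, counts without mitochondrial genes, single batches and tissues, and leaving out each library. The library numbers fall into 4 blocks, which the labels do not tie to embryos.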

Additional observations from a re-analysis of the deposited data

Results flagged for a closer look

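In 14 sets of levels, each of 1 gene in a group of 4 to 9 libraries, the gap of the highest and the lowest library to the nearest other was set against the range of the group. The gap was large in 3. The limits used would flag about 1 in 20 groups of normally distributed levels, a rate that does not hold for these levels, many of them at 0. Since both genes were chosen on these levels, this is a description and no test. Slc45a2 in ventral middle OS replicate 69 was at 1386 CPM and at 0 in the other 3 libraries of that region. The same library, with the same 1386 CPM, is also the one that stood apart among the 9 ventral OS libraries, so these are 1 result and not separate ones. Gpnmb in dorsal distal OS replicate 63 was at 832 CPM, the highest of the 7 dorsal OS libraries. Without it the mean of the dorsal OS was 129.7 ± 128 CPM (SD, n = 6). Why these libraries stood apart was not tested.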

How the results depend on the processing

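For Gpnmb and Slc45a2 the differences by tissue, dorsal-ventral and distal-proximal position kept their sign under every alternative tried, except that the dorsal minus ventral difference of Slc45a2 became -21.6 CPM with DESeq2 size factors. They moved by less than their SD (on the log2 scale, in units of SD), except for the pRPE minus OS difference of Gpnmb with mitochondrial genes left out of the totals. There it was 631 CPM, against 339 CPM, and that of Slc45a2 was 877 CPM, against 452 CPM. With these smaller totals the pooled SDs rose too, from 270 to 488 CPM for Gpnmb and from 502 to 913 CPM for Slc45a2. The means rest on 2 to 4 libraries per region. Leaving out single libraries gave pRPE minus OS differences of 284 to 388 CPM for Gpnmb and 373 to 529 CPM for Slc45a2, dorsal minus ventral differences of 115 to 211 and 120 to 293 CPM, and distal minus proximal differences of 60.7 to 183 and 92.2 to 296 CPM. Libraries with a count of Gpnmb, Slc45a2 and both numbered 24, 20 and 20, and 22, 19 and 19 with more than 10 counts.

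The number of genes called between pRPE and OS, 445, was 182 with DESeq2, 9164 without a filter, 31 with more than 10 counts in at least 6 libraries and 227 with the replicate block in place of the batch. Leaving out single libraries gave 408 to 685, the highest without dorsal middle OS replicate 84. From the pigment list 1 gene was called, against 0 with DESeq2, the stricter filter or the block, and 4 of 21 tested without a filter, where 9164 of 25243 genes were called. Leaving out single libraries gave 0 to 2, with 0 without ventral distal pRPE replicate 36 and 2 without ventral middle OS replicate 39 or ventral distal pRPE replicate 66. Between dorsal and ventral libraries 680 genes were called, 432 with DESeq2, 74 with the stricter filter, 566 with the block and 544 to 808 without single libraries, and from the list 0 to 1, with 1 without dorsal middle OS replicate 84 or ventral distal OS replicate 88. Between distal and proximal libraries 0 were called, 104 with DESeq2, 17 without a filter and 91 with the middle OS placed halfway, where 1 list gene, Hps3, was called, and 0 to 0 without single libraries, for the list too. The cause of these shifts was not tested. Libraries of one block deviated together at a mean correlation of 0.016 over 103 pairs, so the blocks were not taken as a pairing. With the replicate block the pRPE minus OS difference was 332 CPM for Gpnmb and 453 CPM for Slc45a2, dorsal minus ventral 127 and 166 CPM and distal minus proximal 144 and 390.2 CPM. Within single blocks the signs were mixed, except for Gpnmb between tissues: pRPE minus OS ran from 129.9 to 545 CPM for Gpnmb and from -267 to 850.3 CPM for Slc45a2, dorsal minus ventral from -197 to 311 and from -306 to 547 CPM, and distal minus proximal from -30.8 to 397 and from -78.6 to 1379 CPM, the last from 1 block while the others reached at most 164 CPM.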

Other observations

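The genes beside Gpnmb and Slc45a2 in the RefSeq annotation of GRCm38.p6 were looked up, within 100 kilobases, and none overlapped them. Malsu1, a mitochondrial ribosome assembly gene 15613 bases from Gpnmb, was counted in 11 of 14 pRPE and 2 of 16 OS libraries. All 13 of these held both Gpnmb and Slc45a2, which were counted together in 20 of all 30 libraries. Within the pRPE they were counted together in 13 of 14 libraries. The pseudogene Gm7890, 21771 bases away from Gpnmb, was counted in 8 pRPE libraries, 7 of them with both genes, and no OS library. Igf2bp3, an RNA-binding protein gene 27036 bases away, was counted in 27 libraries, 20 of them with both genes. Its level was 394 ± 209 CPM in the pRPE and 197 ± 173 CPM in the OS (SD). Beside Slc45a2, Amacr, an enzyme of branched fatty acid oxidation 4097 bases away, was counted in 10 of 14 pRPE and 8 of 16 OS libraries. Of these 18 libraries 14 held both genes, and the levels were 74.7 ± 94.8 CPM in the pRPE and 93.0 ± 116 CPM in the OS (SD). Adamts12, 35540 bases from Slc45a2, was counted in 5 pRPE and 2 OS libraries, 5 of these 7 with both genes, and the pseudogene Gm19253, 13434 bases from Gpnmb, in 4 pRPE and 1 OS libraries, all 5 with both. These genes were chosen by position and for passing the filter on low counts, after the levels were seen, and no test was made. C1qtnf3, 20559 bases from Slc45a2, did not pass and held 1349 counts in 1 ventral OS library and none in the pRPE.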
